A study of Mus musculus with 48 samples.

Results

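The genes described are 5 inflammatory signalling genes of the brain: the chemokine genes Ccl2, Ccl3 and Ccl12, the cytokine gene Il18, and Ptgs2, which encodes cyclooxygenase 2. They were chosen by name, with earlier results of these data known, as 5 of the 757 genes counted on the nCounter Glial panel. In this assay each target RNA is tagged with a fluorescent barcode and counted without amplification. Ccl12 and Ptgs2 were also among the 760 genes of the nCounter Neuropathology panel, which was run on mice with the same animal numbers, and that panel serves here as a second reading of the same mice and not as more mice. RNA came from the cortex of mice aged 7.5 months. The groups, of 6 mice each, were 5xFAD Plcg2 KO+/- females, 5xFAD females, 5xFAD Plcg2 KO+/- males and 5xFAD males. All 24 mice thus carried 5xFAD, a set of mutant human transgenes that the Thy1 promoter drives in neurons and that leads to amyloid plaques early in life. The groups differed in a heterozygous knockout of Plcg2, the gene of phospholipase C gamma 2, a signalling enzyme of microglia and other immune cells. Mice without the transgenes were not analysed here, so the values say nothing of the effect of amyloid itself. Expression of Plcg2 was not analysed here, so the genotype labels were not checked against it.

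The Plcg2 KO+/- mice had animal numbers from 3 to 51 and the 5xFAD mice from 1177 to 1270. The labels used here name no cohort or batch, so what these number ranges stand for is not known. Anything that goes with the ranges cannot be told apart from genotype. Recovered total counts on the Glial panel were 1773331 to 1897264 in Plcg2 KO+/- females, against 953461 to 1239109 in 5xFAD females, with no overlap. In males they overlapped, at 1360757 to 1814975 in Plcg2 KO+/- mice and 1428825 to 1775622 in 5xFAD mice. On the Neuropathology panel the totals were 1220459 to 1603006 in Plcg2 KO+/- females against 528033 to 651615 in 5xFAD females, and 1119119 to 1587858 in Plcg2 KO+/- males against 865095 to 1274953 in 5xFAD males. Values below are normalized counts as deposited, and differences are Plcg2 KO+/- minus 5xFAD on the log2 scale with their standard error. The adjusted p-values are those of limma, with the Benjamini-Hochberg method applied across a whole panel, and a gene is called changed at an adjusted p under 0.05. Because each gene has its own probe and lengths were not used, levels are compared between groups for 1 gene at a time and not between genes. In bulk cortex, fewer cells of a type and less RNA per cell cannot be told apart.

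Chemokines of the CC family are small secreted proteins that draw leukocytes along a gradient. CCL2 and the mouse protein CCL12 bind the receptor CCR2 of monocytes, while CCL3, an early product of activated microglia, binds CCR1. IL-18 is a cytokine of the IL-1 family that is made as an inactive precursor and is cut to its active form by caspase-1 in inflammasomes such as that of NLRP3. Cyclooxygenase 2 turns arachidonic acid into the precursor of prostaglandins and thromboxane. In the cortex it is made by excitatory neurons, where its transcription follows synaptic activity as that of an immediate early gene, and by other cells during inflammation.

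On the Glial panel all 5 genes were called for the genotype difference over both sexes, 3 lower and 2 higher in Plcg2 KO+/- mice, where 60.5% of all 757 genes were called, 26.7% lower and 33.8% higher. In females all 5 were called, against 54.8% of all genes, and in males 4 of 5, against 40.7%, with Ccl2 the exception. The interaction of genotype and sex was called for 0 of the 5 by limma, with 0 at an unadjusted p under 0.05 and 0 with limma's voom on the recovered counts, against 21.9% of all genes. With so many genes called, the calls alone do not set the 5 apart from the panel. Ccl12, Ccl3 and Il18 fell by 38.3%, 25.5% and 22.2% of the geometric mean of 5xFAD mice. Ptgs2 was 1.34-fold and Ccl2 1.60-fold as high as in 5xFAD mice. The median genotype difference over all genes was 0.04, and the median of its size 0.19.

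The promoters of Ccl12 and Ptgs2 are shown because these are the pair of genes read on both panels, and because they differed between the genotypes in opposite directions. The sequences are RefSeq's for GRCm38.p6, from 250 bases before to 50 bases after the annotated start of each gene, in the direction of transcription. Of the 5 genes, 4 were matched to a promoter there, all but Ccl2. Capitals mark matches to the motifs searched on both strands: a TATA box with the letters TATAAA, a core bound by PU.1 (the factor encoded by Spi1) with GAGGAA, a CRE-like element with ACGTCA, an E-box with CACGTG, an AP-1 element with TGANTCA, and the NF-kB motif by name.
Ccl12, chr11:82101595-82101894, plus strand: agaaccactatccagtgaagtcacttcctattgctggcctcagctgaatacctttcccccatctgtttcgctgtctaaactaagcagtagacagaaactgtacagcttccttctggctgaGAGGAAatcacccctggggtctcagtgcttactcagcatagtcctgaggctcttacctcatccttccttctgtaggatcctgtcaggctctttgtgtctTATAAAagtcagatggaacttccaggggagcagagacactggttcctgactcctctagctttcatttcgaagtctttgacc
Ptgs2, chr1:150099781-150100080, plus strand: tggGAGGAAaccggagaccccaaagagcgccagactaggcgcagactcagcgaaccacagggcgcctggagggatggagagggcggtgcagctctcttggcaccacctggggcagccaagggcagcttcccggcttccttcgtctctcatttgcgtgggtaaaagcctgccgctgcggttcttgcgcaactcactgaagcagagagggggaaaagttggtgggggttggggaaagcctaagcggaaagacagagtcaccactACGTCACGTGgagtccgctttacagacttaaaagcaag
The Ccl12 promoter held GAGGAA from base 121 and TATAAA from base 220 of the 300 shown, with a GC content of 48%. The Ptgs2 promoter, with a GC content of 59.3%, held GAGGAA from base 4 and ACGTCA from base 263, which overlaps CACGTG from base 267. Neither window matched TGANTCA or the NF-kB motif. Among 32544 promoters of the same length, GAGGAA was in 28.1%, TATAAA in 13.6%, TGANTCA in 7.79%, ACGTCA in 7.55%, CACGTG in 7.17% and the NF-kB motif in 8.49%. These matches describe letters and say nothing of binding in these mice.

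Ccl12 had the largest fall of the 5 genes. In Plcg2 KO+/- females it had 44.6, 59.7 and 61.2 normalized counts (lowest, median and highest of 6), against 70.8, 97.0 and 116 in 5xFAD females. Plcg2 KO+/- males had 42.6, 58.9 and 75.1, against 63.4, 90.2 and 106 in 5xFAD males. The female groups did not overlap, which held for 26.6% of all genes of the panel. The male groups did (9.11% of all genes did not overlap in males), with 5 of 6 Plcg2 KO+/- mice below every 5xFAD mouse. Ccl12 fell by 0.70 ± 0.097 over both sexes (adjusted p = 3.76e-06, 12 of 12 Plcg2 KO+/- mice below the 5xFAD mean for their sex). The fall was 0.74 ± 0.14 in females (adjusted p = 0.000111) and 0.66 ± 0.14 in males (adjusted p = 0.00102). The differences in the sexes were not shown to differ, with an interaction (female minus male difference) of -0.08 ± 0.19 (95% interval -0.49 to 0.32, adjusted p = 0.783).

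The size of the Ccl12 difference in females turns on the scaling for depth. Before scaling, Plcg2 KO+/- females had 60 to 84 whole counts of Ccl12 and 5xFAD females 57 to 82, from totals that did not overlap. Males, whose totals overlapped, had 41 to 67 whole counts in Plcg2 KO+/- mice and 67 to 105 in 5xFAD mice. The male difference is thus visible in the unscaled counts as well as in the scaled ones. With the log2 total count as a covariate, the Ccl12 difference over both sexes was -0.37 (adjusted p = 0.19) on the Glial panel and -1.46 on the Neuropathology panel, where it remained called.

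**Figure D1:**
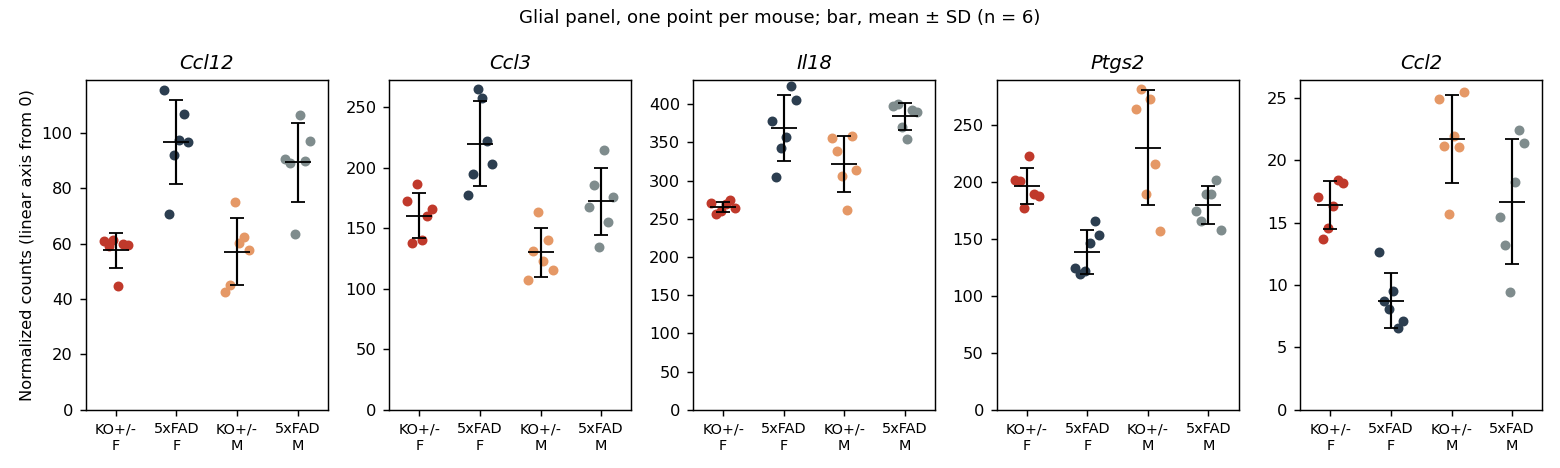
Normalized counts on the Glial panel (vertical axes, linear from 0) of Ccl12, Ccl3, Il18, Ptgs2 and Ccl2 in the 4 groups, with 1 point per mouse and bars for the mean ± SD (n = 6). Plcg2 KO+/- mice sit below 5xFAD mice of their sex for Ccl12, Ccl3 and Il18 and above them for Ptgs2 and Ccl2. The groups overlap in males for every gene and in females for Ccl3 alone. Over all genes of the panel 26.6% did not overlap in females and 9.11% in males.

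Ccl3 also fell, by less, and its groups overlapped in both sexes. Plcg2 KO+/- females had 137, 163 and 186 normalized counts (lowest, median, highest), against 178, 212 and 265 in 5xFAD females. Plcg2 KO+/- males had 107, 127 and 164, against 134, 172 and 215 in 5xFAD males. In females 5 of 6 Plcg2 KO+/- mice, and in males 4 of 6, lay below every 5xFAD mouse of their sex. The fall over both sexes was 0.43 ± 0.084 (adjusted p = 0.000181, 12 of 12 mice below the 5xFAD mean), with -0.45 ± 0.12 in females (adjusted p = 0.003) and -0.40 ± 0.12 in males (adjusted p = 0.0107). The interaction of -0.05 ± 0.17 (95% interval -0.39 to 0.30, adjusted p = 0.866) did not show a different size in the sexes. Before scaling, Ccl3 had 181 to 256 whole counts in Plcg2 KO+/- females and 126 to 230 in 5xFAD females. In males it had 103 to 146 in Plcg2 KO+/- mice and 142 to 212 in 5xFAD mice, so the unscaled counts were lower in Plcg2 KO+/- males and not in Plcg2 KO+/- females. With the log2 total as a covariate the difference over both sexes was -0.49 (adjusted p = 0.058).

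Ccl2 differed in the opposite direction from Ccl12. Both proteins bind CCR2, and the genes lie close together on chromosome 11, with the chemokine genes Ccl7 and Ccl11 the 2 protein-coding genes between them. Ccl2 had 13.7, 16.7 and 18.5 normalized counts in Plcg2 KO+/- females, against 6.52, 8.38 and 12.7 in 5xFAD females. These groups did not overlap, as for 26.6% of all genes of the panel. The male groups overlapped, at 15.7, 21.5 and 25.5 in Plcg2 KO+/- mice, against 9.46, 16.8 and 22.4 in 5xFAD mice. Ccl2 rose by 0.68 ± 0.13 over both sexes (adjusted p = 0.000111, 11 of 12 mice above the 5xFAD mean). It rose by 0.93 ± 0.18 in females (adjusted p = 0.000166), while in males its difference of 0.42 ± 0.18 was not called (adjusted p = 0.0635). The interaction of 0.51 ± 0.26 (95% interval -0.02 to 1.04, adjusted p = 0.159) was not called, so a difference between the sexes was not shown.

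The Ccl2 values rest on few molecules. The whole counts were 18 to 25 in Plcg2 KO+/- females, 5 to 9 in 5xFAD females, 14 to 27 in Plcg2 KO+/- males and 10 to 21 in 5xFAD males. Ccl2 was 1 of 65 dim genes, those with a mean under 20 normalized counts, and as a class these genes were higher in Plcg2 KO+/- mice: 61 of 65 had a difference above 0, and 56.9% were called higher and 0 lower by limma, with 0 lower at an unadjusted p under 0.05 and 0 with voom. Their median difference was 0.59 over both sexes, 0.82 in females and 0.47 in males. Ccl2 ranked 28 of 65 from the highest over both sexes, 20 in females and 35 in males, so its difference lay in the middle of what dim genes showed. When values under 20 normalized counts were set to 20, the Ccl2 difference was 0.06 (adjusted p = 0.138) over both sexes. With quantile normalization it was 0.26 (adjusted p = 0.113). In females, whose totals did not overlap, Ccl2 was not called under either of these. With the log2 total as a covariate the female Ccl2 difference was larger, at 1.38, but was not called (adjusted p = 0.0629). Over both sexes the Ccl2 difference was 0.90 with that covariate and remained called.

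**Figure D2:**
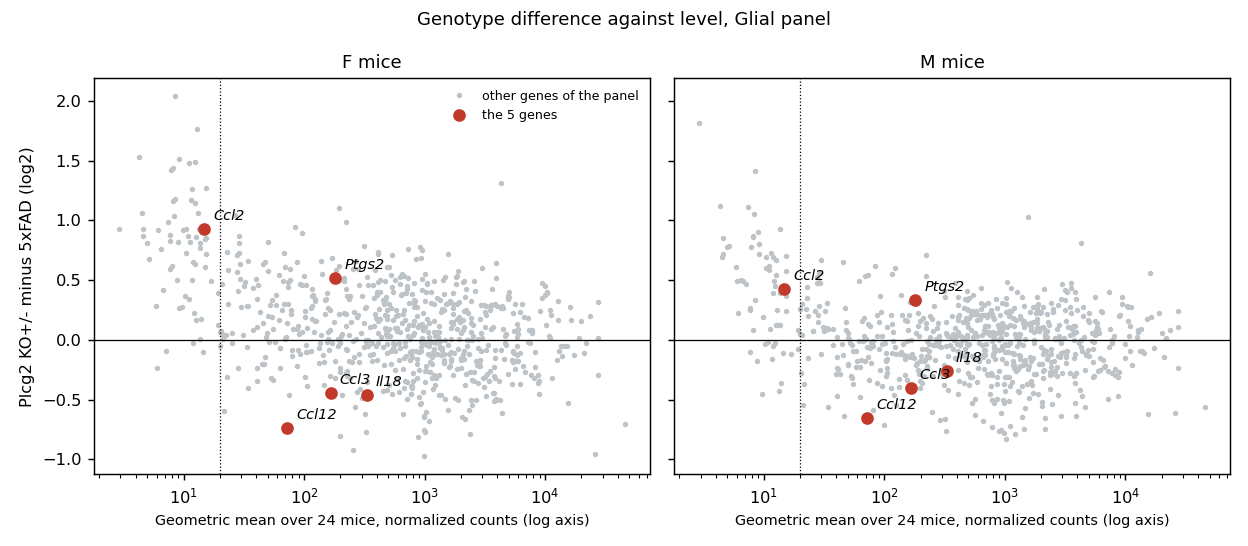
Genotype difference (vertical axis, Plcg2 KO+/- minus 5xFAD, log2) against the geometric mean over 24 mice (horizontal log axis, normalized counts) for the 757 genes of the Glial panel in females and males, with the 5 genes named. The dotted line marks 20 normalized counts; left of it most genes lie above 0, Ccl2 among them, while Ccl12, Ccl3, Il18 and Ptgs2 lie to the right of it.

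Ccr2, the receptor of CCL2 and CCL12, was measured here on the Neuropathology panel alone and was dim there. It was called higher by 0.61 ± 0.17 (adjusted p = 0.00383), with 1.05 ± 0.25 in females (adjusted p = 0.00129) and 0.18 ± 0.25 in males (adjusted p = 0.562), and it lost the call with values under 20 set to 20 (0.08, adjusted p = 0.225).

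Across the listed chemokine ligands no common direction was seen. The 4 measured on the Glial panel were Ccl2, Ccl3, Ccl12 and Cx3cl1, the membrane-bound chemokine of neurons. Of these 2 were called higher and 2 lower, with a median of 0.01, where 60.5% of all genes were called. Cx3cl1 rose by 0.44 ± 0.099 there (adjusted p = 0.000649) and by 0.28 ± 0.052 on the Neuropathology panel (adjusted p = 0.000101), where it was not called with no sex term (adjusted p = 0.0864). With the log2 total as a covariate the Glial difference of Cx3cl1 was -0.22 and was not called. Of the listed ligands 1, Ccl2, was then called higher and 0 lower, where 30 of all 757 genes were called higher and 86 lower. Of 7 ligands on the Neuropathology panel 3 were called higher and 3 lower, where 71.6% of all 760 genes were called, with a median of 0.17 against -0.01 over all genes. Cxcl12, a chemokine of endothelial and mural cells, fell by 0.38 ± 0.051 (adjusted p = 1.93e-06). Cxcl10, a chemokine induced by interferon, rose by 0.63 ± 0.19 (adjusted p = 0.00656), but was 0.27 and not called with the log2 total as a covariate (adjusted p = 0.669). Cxcr4, the receptor of CXCL12, rose by 0.51 ± 0.11 (adjusted p = 0.000321). These 4 were named after their values were seen.

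Il18 fell with the smallest spread of the 5 genes. Il18 had 257, 266 and 275 normalized counts in Plcg2 KO+/- females, against 304, 367 and 424 in 5xFAD females. For males the values were 261, 326 and 358 in Plcg2 KO+/- mice, against 354, 391 and 401 in 5xFAD mice. The female groups did not overlap, as for 26.6% of all genes of the panel. In males 4 of 6 Plcg2 KO+/- mice lay below every 5xFAD mouse. The SD in Plcg2 KO+/- females was 6.67 around a mean of 266 (n = 6), against 43.5 around 369 in 5xFAD females (n = 6). Il18 fell by 0.36 ± 0.053 over both sexes (adjusted p = 5.67e-06, 12 of 12 mice below the 5xFAD mean), by 0.46 ± 0.074 in females (adjusted p = 2.35e-05) and by 0.26 ± 0.074 in males (adjusted p = 0.00885). The interaction was -0.20 ± 0.11 (95% interval -0.42 to 0.02, adjusted p = 0.176) and was not called. Before scaling, females had 338 to 372 whole counts in Plcg2 KO+/- mice and 245 to 344 in 5xFAD mice, and males had 273 to 368 in Plcg2 KO+/- mice and 346 to 412 in 5xFAD mice. In females the order of the groups thus depended on the scaling. With the log2 total as a covariate the female difference kept its size but not its call (-0.46, adjusted p = 0.12), and the difference over both sexes remained called.

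On the Glial panel 33.8% of all genes were called higher and 26.7% lower. Of 6 measured genes of the inflammasome and IL-1 family list, 2 were called higher and 1 lower there, with a median of 0.13. Il18 was the lower one of the 6. With the log2 total as a covariate 0 of them were called higher, where 30 of all 757 genes were called higher. With quantile normalization 0 of the 6 were called higher and 2 lower. Nlrp3, the sensor of the inflammasome, rose by 0.50 ± 0.15 (adjusted p = 0.00584). That call was not made with quantile normalization (0.31, adjusted p = 0.0888) or with the covariate (0.72, adjusted p = 0.111), and the male difference of Nlrp3 alone was 0.28 (adjusted p = 0.284). Its difference on the Neuropathology panel was 0.11 ± 0.13 and was not called (adjusted p = 0.44). Il1b, the gene of IL-1 beta, which caspase-1 also cuts, was dim on both panels and was called on the Glial panel (0.46 ± 0.18, adjusted p = 0.0318) but not on the Neuropathology panel (0.01 ± 0.10, adjusted p = 0.906); it was named after its values were seen. The Glial call of Il1b was lost with quantile normalization, with values under 20 set to 20, and without 5xFAD female 1180, 1190 or 1248, Plcg2 KO+/- female 8 or 14, 5xFAD male 1181 or Plcg2 KO+/- male 10. Casp1, the caspase that activates IL-18, was measured here on the Neuropathology panel alone, at -0.16 ± 0.083 (adjusted p = 0.0842). It was called lower with array weights (-0.23, adjusted p = 0.00479), with the covariate (-0.64, adjusted p = 0.0056), without Plcg2 KO+/- female 12 and male 3 together (-0.24, adjusted p = 0.00605), and without either of these 2 mice or 5xFAD female 1253. Of the 7 genes of the list on that panel 0 were called by limma, where 71.6% of all genes were called. The list count was also 0 at an unadjusted p under 0.05 and 0 with voom. On that panel 2 were called lower with array weights and 2 without Plcg2 KO+/- female 12 and male 3 together, 1 was called lower with quantile normalization and 1 with the covariate, and leaving out single mice gave 0 to 2. Il18 was not analysed there, so its difference has no second reading.

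**Figure D3:**
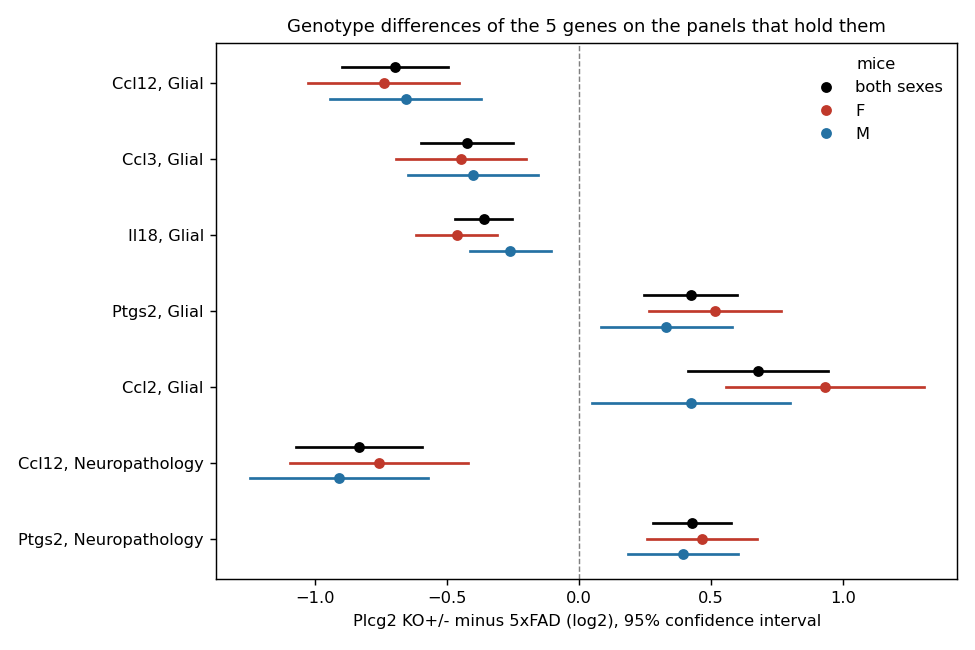
Genotype differences (horizontal axis, Plcg2 KO+/- minus 5xFAD, log2) with 95% confidence intervals from limma, for both sexes together, females and males, of the 5 genes on the Glial panel and of Ccl12 and Ptgs2 on the Neuropathology panel. Ccl12, Ccl3 and Il18 lie below 0 and Ptgs2 and Ccl2 above it, and the Neuropathology differences of Ccl12 (-0.83) and Ptgs2 (0.43) have the sign of the Glial ones.

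Ptgs2 rose in both sexes. It had 177, 195 and 222 normalized counts in Plcg2 KO+/- females, against 119, 135 and 166 in 5xFAD females. These groups did not overlap, as for 26.6% of all genes of the panel. The male groups overlapped, at 157, 240 and 281 in Plcg2 KO+/- mice against 158, 182 and 202 in 5xFAD mice, with 4 of 6 Plcg2 KO+/- mice above every 5xFAD mouse and 1 below them all. Ptgs2 rose by 0.42 ± 0.085 over both sexes (adjusted p = 0.000214, 11 of 12 mice above the 5xFAD mean), by 0.51 ± 0.12 in females (adjusted p = 0.000996) and by 0.33 ± 0.12 in males (adjusted p = 0.0327). The interaction was 0.18 ± 0.17 (95% interval -0.17 to 0.54, adjusted p = 0.459). In whole counts Ptgs2 had 243 to 299 in Plcg2 KO+/- females against 88 to 130 in 5xFAD females, and 166 to 306 in Plcg2 KO+/- males against 140 to 200 in 5xFAD males. The male call was lost when any 1 of 6 male mice was left out (5xFAD 1177, 1181 and 1270 and Plcg2 KO+/- 10, 11 and 13, adjusted p 0.0524 to 0.092). With the log2 total as a covariate the difference over both sexes was 0.15 (adjusted p = 0.572) on the Glial panel and 0.69 on the Neuropathology panel, where it remained called.

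The 3 genes most like Ptgs2, by the Pearson r of deviations from the group means over the 24 mice, were Egr1 (r = 0.75), an activity-dependent transcription factor, Bdnf (r = 0.72), a neurotrophin gene induced by activity, and Tmem88b (r = 0.66). Genes of a mouse share its library and scaling factor, so the r values are descriptions. On the Glial panel 33.8% of all genes were called higher and 26.7% lower. Of 4 measured immediate early genes there 2 were called higher and 0 lower by limma, with a median of 0.46. At an unadjusted p under 0.05 and with voom, 0 of them were lower. Their summed level was 6567 to 7094 normalized counts in Plcg2 KO+/- females against 2739 to 3646 in 5xFAD females, and 5775 to 10595 in Plcg2 KO+/- males against 3928 to 6253 in 5xFAD males. Of 8 on the Neuropathology panel 5 were called higher and 2 lower, where 71.6% of all genes were called. Egr1 itself rose by 1.06 ± 0.11 (adjusted p = 1.02e-07) and by 1.10 ± 0.11 on the Neuropathology panel (adjusted p = 3.28e-08), whereas Bdnf differed by 0.03 ± 0.079 on the Glial panel (adjusted p = 0.753) and fell by 0.80 ± 0.20 on the Neuropathology panel (adjusted p = 0.00136). The likeness of Ptgs2 and Bdnf within groups was thus not matched by a common genotype difference.

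On the Glial panel 60.5% of all genes were called, 33.8% higher and 26.7% lower, and of dim genes 56.9% were called higher. Of 7 genes of the prostanoid and eicosanoid list measured there, 4 were called higher and 1 lower, with a median of 0.42. Ptgs2 was among the 7, and 2 of the 7 were dim. With the log2 total as a covariate 30 of all 757 genes were called higher and 86 lower. Of the list 0 were then called higher and 0 lower. With dim genes left out 2 of the list were called higher, and with no sex term 0 were called lower. Ptger4, a receptor of prostaglandin E2, rose by 0.87 ± 0.17 (adjusted p = 0.000172) but was dim, and it was not called with values under 20 set to 20 (0.13, adjusted p = 0.0599). Ptgis, the prostacyclin synthase gene, rose by 0.55 ± 0.14 (adjusted p = 0.00128), but was -0.06 and not called with the log2 total as a covariate. Hpgds, a prostaglandin D2 synthase gene, fell by 0.24 ± 0.091 (adjusted p = 0.0281) and was not called on the Neuropathology panel (-0.06 ± 0.091, adjusted p = 0.542). Its Glial call was also lost with no sex term (adjusted p = 0.0527), with the covariate (-0.13), and without 5xFAD female 1249, Plcg2 KO+/- female 18 or 51, or 5xFAD male 1177 or 1181. Pla2g4a, the phospholipase that releases arachidonic acid, was measured here on the Neuropathology panel alone and was not called (0.09 ± 0.11, adjusted p = 0.45). Ptgis and Hpgds were named after their values were seen.

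The Neuropathology panel gave a second reading of Ccl12 and Ptgs2, and called both in each sex, where 54.2% of its genes were called in females and 56.7% in males. Ccl12 had 30.4, 32.0 and 34.0 normalized counts in Plcg2 KO+/- females, against 42.4, 55.1 and 63.9 in 5xFAD females, with no overlap, as for 22.8% of all genes of that panel. Males had 21.0, 36.5 and 46.1 in Plcg2 KO+/- mice, against 41.0, 72.6 and 79.8 in 5xFAD mice, and overlapped (13.9% of all genes did not). It fell by 0.83 ± 0.11 over both sexes (adjusted p = 2.95e-06, 12 of 12 mice), by 0.76 ± 0.16 in females (adjusted p = 0.000586) and by 0.91 ± 0.16 in males (adjusted p = 0.000152). Here the whole counts of females ran against the scaled values, at 48 to 60 in Plcg2 KO+/- mice and 27 to 46 in 5xFAD mice.

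Ptgs2 on that panel had 284, 310 and 362 normalized counts in Plcg2 KO+/- females, against 206, 219 and 287 in 5xFAD females. Males had 294, 396 and 473 in Plcg2 KO+/- mice, against 266, 295 and 333 in 5xFAD mice. The groups overlapped in both sexes, with 5 of 6 Plcg2 KO+/- mice above every 5xFAD mouse in each. Ptgs2 rose by 0.43 ± 0.071 over both sexes (adjusted p = 2.54e-05, 11 of 12 mice), by 0.47 ± 0.10 in females (adjusted p = 0.000614) and by 0.39 ± 0.10 in males (adjusted p = 0.00248).

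Within groups the readings of the panels were correlated for both genes, more closely for Ptgs2 than for Ccl12. The deviations from the group means correlated with a Pearson r of 0.59 for Ccl12 (permutation p = 0.012, Spearman rho = 0.51, permutation p = 0.026, 24 mice) and 0.86 for Ptgs2 (permutation p = 1e-05, the smallest that 100000 permutations can give; rho = 0.85, permutation p = 1e-05). Adjusted over the 2 relations the Pearson p were 0.012 and 2e-05 and the Spearman p 0.026 and 2e-05. Without the 2 mice farthest from the median the r were 0.50 and 0.85. Over the 251 genes on both panels the median r was 0.58, with a range from -0.91 to 0.99. Ccl12 lay near that median and Ptgs2 above it.

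**Figure D4:**
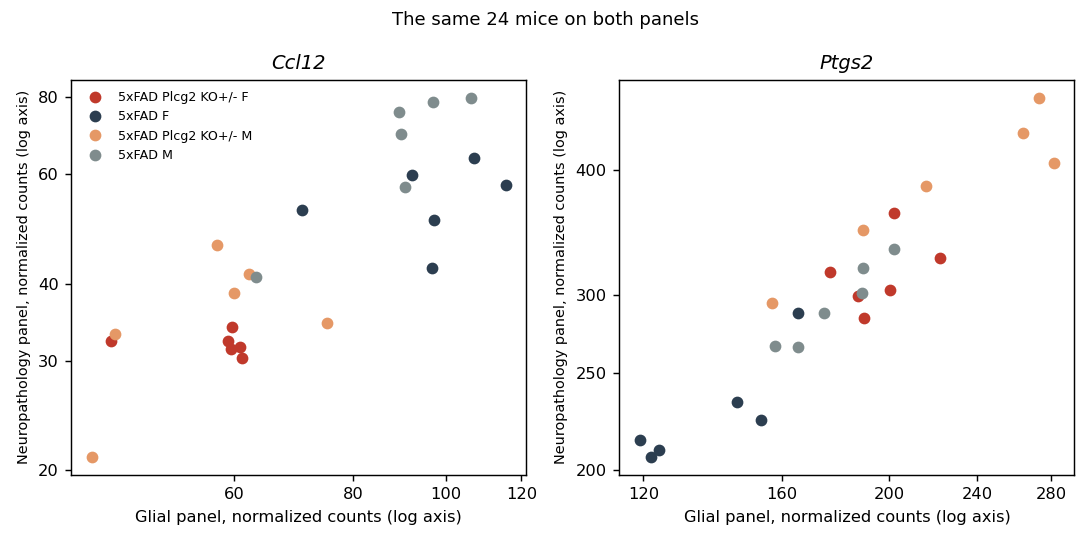
Normalized counts of Ccl12 and Ptgs2 in the same 24 mice on the Glial panel (horizontal log axis) and the Neuropathology panel (vertical log axis), with 1 point per mouse coloured by group. Plcg2 KO+/- mice lie toward the low end for Ccl12 and toward the high end for Ptgs2 on both axes.

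Ratios between the genes within a mouse do not depend on the scaling for depth, because 1 factor multiplies all genes of a library. They were chosen after the values were seen and are given as descriptions, with no test. The log2 ratio of Ptgs2 to Ccl12 was 1.53 to 2.32 in Plcg2 KO+/- females and 0.10 to 0.75 in 5xFAD females on the Glial panel. On the Neuropathology panel it was 3.06 to 3.52 in Plcg2 KO+/- females and 1.78 to 2.40 in 5xFAD females. In males it was 1.33 to 2.64 in Plcg2 KO+/- mice and 0.70 to 1.58 in 5xFAD mice on the Glial panel, and 2.67 to 4.38 in Plcg2 KO+/- mice and 1.76 to 2.88 in 5xFAD mice on the Neuropathology panel. On both panels the female groups were apart and the male groups overlapped. The ratio of Ccl2 to Ccl12, the ligands of CCR2, was -2.12 to -1.45 in Plcg2 KO+/- females and -4.04 to -3.03 in 5xFAD females. In males it was -2.26 to -0.77 in Plcg2 KO+/- mice and -2.76 to -2 in 5xFAD mice. Ccl2 is dim, with 5 to 9 whole counts in 5xFAD females. Dim genes had a median difference of 0.82 in females, and a ratio to Ccl12 does not remove a shift of dim genes. The ratio of Ptgs2 to Il18 was -0.56 to -0.28 in Plcg2 KO+/- females and -1.61 to -1.29 in 5xFAD females, and -1 to 0.06 in Plcg2 KO+/- males and -1.31 to -0.90 in 5xFAD males. The ratio of Ccl3 to Ccl12, which both fell, overlapped between genotypes in both sexes, at 1.21 to 1.66 in Plcg2 KO+/- females and 0.62 to 1.52 in 5xFAD females, and at 1 to 1.55 in Plcg2 KO+/- males and 0.79 to 1.08 in 5xFAD males. A ratio shows unequal change of its genes and not which of them changed.

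**Figure D5:**
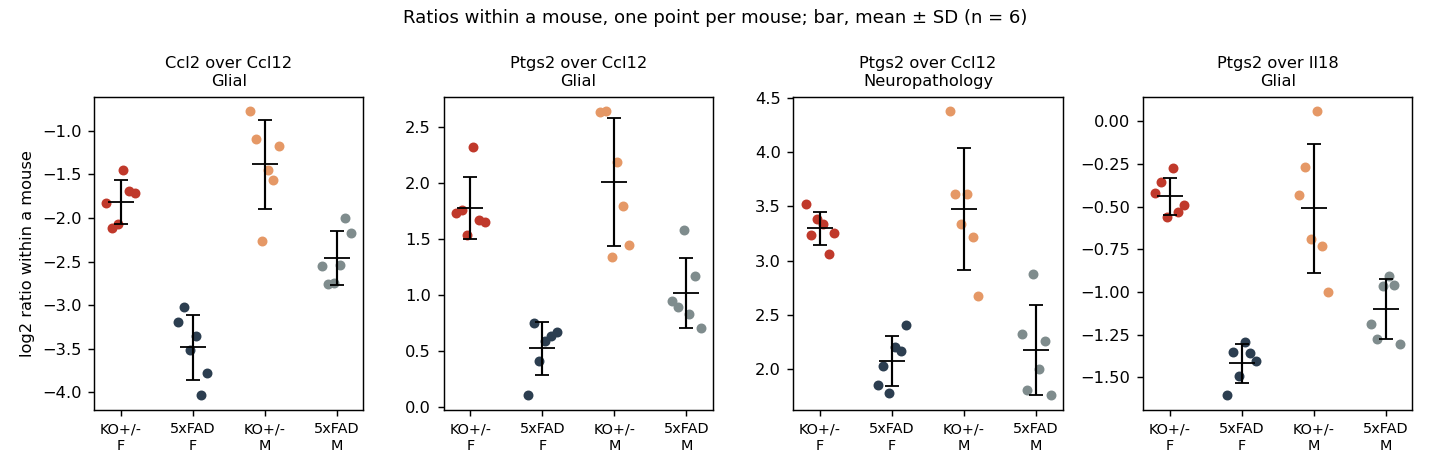
Log2 ratios within a mouse (vertical axes) of Ccl2 to Ccl12 and Ptgs2 to Ccl12 on the Glial panel, Ptgs2 to Ccl12 on the Neuropathology panel and Ptgs2 to Il18 on the Glial panel, with 1 point per mouse and bars for the mean ± SD (n = 6). In females every Plcg2 KO+/- mouse lies above every 5xFAD mouse in all 4 ratios, and in males the groups overlap. Ccl2 is dim, with a mean under 20 normalized counts, and a ratio does not remove a shift of dim genes.

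The group means differed in their order between the 5 genes (mean ± SD of normalized counts, n = 6 each). Ccl12 averaged 57.5 ± 6.39 in Plcg2 KO+/- females against 96.5 ± 15.2 in 5xFAD females, and 57.1 ± 11.9 in Plcg2 KO+/- males against 89.4 ± 14.3 in 5xFAD males, so the sexes of a genotype differed by less than their spread. Ccl3 averaged 160 ± 18.8 in Plcg2 KO+/- females against 220 ± 35.0 in 5xFAD females, and 130 ± 20.2 in Plcg2 KO+/- males against 172 ± 27.4 in 5xFAD males. Its order from the lowest was Plcg2 KO+/- males, Plcg2 KO+/- females, 5xFAD males and 5xFAD females, and the middle pair differed by less than its spread.

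Il18 averaged 266 ± 6.67 in Plcg2 KO+/- females against 369 ± 43.5 in 5xFAD females, and 322 ± 36.6 in Plcg2 KO+/- males against 384 ± 18.1 in 5xFAD males. Plcg2 KO+/- females were lowest and Plcg2 KO+/- males next, with the 5xFAD sexes within their spread of each other. Ptgs2 averaged 196 ± 15.6 in Plcg2 KO+/- females against 138 ± 19.3 in 5xFAD females, and 230 ± 50.7 in Plcg2 KO+/- males against 180 ± 16.7 in 5xFAD males. Its lowest group was 5xFAD females, and 5xFAD males and Plcg2 KO+/- females stood next to each other with a gap about as wide as their spread. Ccl2 averaged 16.4 ± 1.93 in Plcg2 KO+/- females against 8.75 ± 2.20 in 5xFAD females, and 21.7 ± 3.52 in Plcg2 KO+/- males against 16.7 ± 4.98 in 5xFAD males, so Plcg2 KO+/- females and 5xFAD males were close to equal.

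The sex differences (female minus male) have to be read against the whole panel, since 81.2% of genes were called for sex and the median over all genes was -0.27. As deposited they were -0.65 ± 0.13 for Ccl2, 0.33 ± 0.084 for Ccl3, 0.07 ± 0.097 for Ccl12, -0.17 ± 0.053 for Il18 and -0.29 ± 0.085 for Ptgs2, with all but Ccl12 called. With each mouse centred on its median they were -0.43 for Ccl2 (adjusted p = 0.00891), 0.55 for Ccl3 (adjusted p = 1.04e-05), 0.29 for Ccl12 (adjusted p = 0.0243), 0.05 for Il18 (adjusted p = 0.498) and -0.07 for Ptgs2 (adjusted p = 0.514). Ccl3 was thus higher and Ccl2 lower in females under both of these scalings. Il18 and Ptgs2 had no call after centring, and Il18 changed its sign. The Ccl2 sex difference was not called with quantile normalization (-0.16, adjusted p = 0.393). Dim genes, Ccl2 among them, had a median sex difference of -0.61 as deposited. Whether the scaling or the sexes set the shift of the panel was not tested.

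Within groups the 5 genes went largely their own ways. Among their 10 pairs the Pearson r of deviations from the group means was 0.54 for Ccl3 and Ccl12 (rho = 0.41, 24 mice) and between -0.29 and 0.23 for the others. Ccl3 was most like B2m (r = 0.84), Spi1 (r = 0.81) and H2-D1 (r = 0.79), genes of the MHC class I light chain, of the myeloid factor PU.1 and of an MHC class I heavy chain. Ccl12 was most like Ifit3 (r = 0.69), an interferon-induced gene, Kcnq5 (r = 0.69), a potassium channel gene, and Ptprc (r = 0.65), the gene of the leukocyte antigen CD45. Il18 was most like Txn1 (r = 0.68), the gene of thioredoxin, Atp6v1g1 (r = 0.67), a subunit of the vacuolar proton pump, and Chn1 (r = 0.67), a Rac GTPase-activating protein of neurons. Ccl2 was most like Cd8b1 (r = 0.65), a chain of the T cell coreceptor CD8, Ulk1 (r = 0.59), a kinase that starts autophagy, and Olfm3 (r = 0.58). As the highest of 756 other genes each, these r are descriptions.

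Markers of the cells that can make these products were measured in the same mice, and their part in the results was not tested. On the Glial panel 60.5% of all genes were called, 33.8% higher and 26.7% lower. Of 17 microglia markers on the Glial panel 3 were called higher and 7 lower, with a median of -0.10. With the log2 total as a covariate 30 of all 757 genes were called higher and 86 lower. Of the 17 microglia markers 0 were then called higher and 1 lower. Their summed level was 17286 to 21287 normalized counts in Plcg2 KO+/- females against 17100 to 23712 in 5xFAD females, and 13873 to 18559 in Plcg2 KO+/- males against 15552 to 20596 in 5xFAD males, which overlapped in both sexes. Of the list of monocyte, border macrophage and neutrophil markers 2 were measured on the Glial panel, Cd163 and Ms4a4a. Over both sexes both were called higher. In females alone both were called higher, where 54.8% of all genes were called, and in males 1 of the 2, where 40.7% were called. Their summed level was 58.3 to 73.1 in Plcg2 KO+/- females against 33.9 to 46.0 in 5xFAD females, and 57.6 to 94.3 in Plcg2 KO+/- males against 40.6 to 90.1 in 5xFAD males. Of 17 T cell and cytotoxic lymphocyte markers 12 were called higher and 0 lower by limma. At an unadjusted p under 0.05 and with voom, 0 of them were lower. Of the 17 markers 16 were dim, as Ccl2 was, and 56.9% of all 65 dim genes were called higher and 0 lower. The summed level of the 17 markers was 327 to 359 in Plcg2 KO+/- females against 230 to 311 in 5xFAD females. In males it was 389 to 567 in Plcg2 KO+/- mice against 330 to 417 in 5xFAD mice.

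On the Glial panel 33.8% of all genes were called higher and 26.7% lower. Neuron markers, of cells that make cyclooxygenase 2, had 8 of 13 called higher and 1 lower there, with a median of 0.14. Their summed level was 78019 to 87370 in Plcg2 KO+/- females against 63109 to 74400 in 5xFAD females, and 92528 to 109376 in Plcg2 KO+/- males against 94206 to 98811 in 5xFAD males. On the Neuropathology panel, where Ptgs2 also rose, 4 of 10 were called higher and 5 lower, against 71.6% of all genes called. Astrocyte markers had 3 of 7 called higher and 1 lower on the Glial panel, and endothelial and mural markers 2 of 7 higher and 3 lower. The endothelial and mural markers differed by sex. In females 4 of 7 were called higher and 1 lower (median 0.34), where 54.8% of all genes were called. In males 1 was called higher and 5 lower (median -0.40), where 40.7% of all genes were called. The female minus male interaction was called higher for 4 of 7, where 21.9% of all genes were called in either direction. No marker of these lists was at 0 in any mouse, as held for every gene of both panels. Log2 values can hold no 0, so this does not show detection.

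Among single mice, Plcg2 KO+/- male 3 lay nearest the 5xFAD mice for 3 of the genes on the Glial panel. It had the highest Ccl12 (75.1) and Ccl3 (163.7) and the lowest Ccl2 (15.7) of its group, while its Ccl12 on the Neuropathology panel (34.5) lay mid-group. Without Plcg2 KO+/- female 12 and Plcg2 KO+/- male 3 together, all calls of the 5 genes over both sexes held, and the male difference of Ccl2 was called at 0.51 (adjusted p = 0.024).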

How the data were processed

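Cortex RNA of 24 mice was counted on the nCounter Glial and Neuropathology panels by the standard NanoString protocol, per the labels. The deposited values are log2 normalized counts, made with a tool and settings not given in the sources used here. Divided by 1 factor per library, all values were whole numbers (100% within 0.05), which gave whole counts and totals over the panel's genes. These totals limit precision most for dim genes, and the spread between mice enters every test. The members and lists were chosen with earlier results of these data known.

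Each panel was fitted alone with 4 group means (lmFit, contrasts.fit and eBayes of limma 3.58.1 in R 4.3.3), without filter, with contrasts for genotype over both sexes and in each sex, their interaction, and sex. P-values were adjusted by Benjamini-Hochberg over all genes. The fit was tested on simulated data. Lists were counted, with no set test. Genes named are the 5 members, their listed direct partners that were measured (1 is not reported here) and the 3 most alike genes of each member; the text says where another was picked with its values known. Files name no build, so coordinates are those of RefSeq promoters alone. Gene names matched RefSeq for 752 Glial genes directly and 1 by a synonym, with 4 unmatched, and for 753 and 7 Neuropathology genes. Counts of mice of a group differed by at least 1.79 times the counting noise (chi-square per degree of freedom), so no library was taken as a copy of another. Labels separate mice by animal number. Alternatives were other scalings, a floor, weights, voom, a depth covariate, each sex alone and leaving out mice.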

Additional observations from a re-analysis of the deposited data

Results flagged for a closer look

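Among 28 groups of 6 mice examined for Ccl2, Ccl3, Ccl12, Il18 and Ptgs2, 2 had a mouse apart from the others by Dixon's test, and chance gives about 1 in 20 groups. Plcg2 KO+/- female 18 had 44.6 normalized counts of Ccl12 on the Glial panel, where the other 5 Plcg2 KO+/- females had 59.2 to 61.2, and its 32.3 on the Neuropathology panel lay within its group. 5xFAD female 1249 had 287 normalized counts of Ptgs2 on the Neuropathology panel, where the other 5 5xFAD females had 206 to 234.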

How the results depend on the processing

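The genotype differences of Ccl12, Ccl3, Il18 and Ptgs2 over both sexes kept their direction and call when any 1 mouse was left out and under every alternative but the log2 total count as a covariate. With that covariate, which in females runs with genotype, the Glial differences over both sexes were -0.49 for Ccl3, -0.37 for Ccl12 and 0.15 for Ptgs2 without a call. Il18 kept its call, as did Ccl2 at 0.90. In females the differences were 1.38 for Ccl2, -0.58 for Ccl3, -0.080 for Ccl12, -0.46 for Il18 and -0.021 for Ptgs2, none called and the last with its sign changed. The sex difference of Ptgs2 was then -0.16, and Cx3cl1 (-0.22), Il1b (-0.12) and Ptgis (-0.062) changed sign for genotype. On the Neuropathology panel Ccl12 (-1.46) and Ptgs2 (0.69) stayed called. Quantile normalization gave Ccl2 0.26 over both sexes, 0.33 in females and -0.16 for sex without a call, an Il18 interaction of -0.32 (adjusted p = 0.0366), and sex differences of 0.30 for Ccl12, 0.058 for Il18 and -0.075 for Ptgs2. On the Neuropathology panel it changed the sign of the dim genes Ccl5 (-0.45), Il1b (-0.52) and Pla2g2e (-0.36). Median centring gave sex differences of 0.29 for Ccl12, 0.051 for Il18 and -0.073 for Ptgs2. For Ptgs2 on the Neuropathology panel the sex difference was 0.085 with centring and 0.088 with quantiles. Setting values under 20 to 20 gave Ccl2 0.058 over both sexes and 0 in females. The male difference of Ccl2 was called with centring (0.46), with the floor (0.12), with array weights (0.48), and without Plcg2 KO+/- female 12 and male 3 (0.51). When single mice were left out it ran from 0.27 to 0.52 and was called without 5xFAD female 1180, 5xFAD male 1269 or 1270, or Plcg2 KO+/- male 3. The Ccl2 interaction then ran from 0.41 to 0.66 (called without 5xFAD male 1182), the male Ptgs2 difference from 0.27 to 0.43 and the Neuropathology sex difference of Ccl12 from -0.27 to -0.16 (called without 5xFAD male 1182 or Plcg2 KO+/- male 11). With each sex fitted alone the male Ptgs2 difference was 0.33 (adjusted p = 0.0767). Counts of called Glial genes moved as follows. Over both sexes 256 were higher and 202 lower, against 30 and 86 with the covariate and 169 higher with no sex term. In females 261 and 154 became 23 and 79 with the covariate. In males 130 higher became 236 with array weights, 201 without female 12 and male 3, and 88 to 199 without single mice (199 without Plcg2 KO+/- male 3). For the interaction 115 higher became 62 with the covariate, and 51 lower became 109 with centring, 97 with quantiles, 104 with weights, 119 with the covariate, 85 without female 12 and male 3, and 44 to 90 without single mice. For sex 38 higher and 577 lower became 106 and 209 with centring and 134 and 159 with quantiles. The cause was not tested. Ccl2 has no value with dim genes left out, since it is dim. No paired analysis was possible because Plcg2 KO+/- and 5xFAD mice share no animal numbers.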
